A study of Drosophila melanogaster with 8 samples.

Results

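The genes described here, 10 in number, act in nutrient signalling between the fat body and the brain, and their transcripts were measured in fly heads. They were the gene of the peptide CCHamide-2 (CCHa2) and that of its receptor (CCHa2-R), the cytokine gene upd2, the insulin-like peptide genes Ilp2, Ilp3, Ilp5, Ilp6 and Ilp7, the insulin receptor gene InR, and ImpL2, which encodes an insulin-binding protein. The genes were chosen by name, with the difference between the mutant and the wild type already known in these same libraries. That difference is therefore given for them as a description with no p-value, and nothing is read from its test. Of the 10 genes, 9 matched a row among the 14622 gene identifiers of the table by their FlyBase symbol. InR matched none and was not analysed here.

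RNA was sequenced from heads of 3-day-old male Drosophila melanogaster kept at 18 °C, in 4 libraries of the editing mutant and 4 of the wild type. The mutant, called EA, had the genotype y, sc, AdarE374A. It carried a point mutation in Adar, made with CRISPR/Cas9, that abolishes the catalytic activity of ADAR, the enzyme that edits adenosine to inosine in RNA, and leaves the protein in place. The study's methods describe it as backcrossed to white Canton-S for 7 generations. The wild type, called WT, was white Canton-S. Both groups had the same sex, age, temperature and tissue, and the labels named no drug or diet for either. The labels do not say whether the replicates were separate collections of flies, so the p-values below measure only the spread between these libraries.

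In flies, the fat body senses feeding and sends signals to the insulin-producing cells of the brain, which release insulin-like peptides into the circulation. CCHamide-2 is a nutrient-responsive peptide of the larval fat body and of gut endocrine cells, and its receptor on brain cells promotes insulin-like peptide production and release. Unpaired 2, the product of upd2, is a leptin-like cytokine of the fat body that acts through the receptor Domeless. Ilp2, Ilp3 and Ilp5 are made by the median insulin-producing cells of the brain, and Ilp6 is made largely by the fat body.

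Total reads ran from 12517490 to 24342035 per EA library and from 9930607 to 19173154 per WT library. The values below are normalized read counts, which are reads divided by 1 size factor per library. A gene was tested where its mean was at least 10, which left 10347 genes, and 125 of them (1.21%) passed a Benjamini-Hochberg adjusted p of 0.05 in limma, 68 higher (0.657%) and 57 lower (0.551%) in EA. An unadjusted p under 0.05 was reached by 1309 genes (12.7%). In 827 genes (7.99%) the 4 EA libraries did not overlap the 4 WT libraries, with EA above in 3.96% and below in 4.03% of the genes tested. Genes that mark the eye, neurons and glia were present in all libraries, with ninaE at 85506 to 158575, elav at 3532 to 5829 and repo at 720.1 to 864, as the head label requires. Adar itself was at 5029 ± 1372 in EA against 4050 ± 523 in WT (SD, n = 4; adjusted p = 0.594, limma), which does not check the labels because the mutation leaves the transcript in place. The eye-colour gene w, on the X chromosome like Adar, was at 117 reads or more in each EA library and at no more than 3 in any WT library, at least 45.8-fold higher in EA against a floor of 3 reads per library, so the groups also differed in w. WT replicates 2 and 4 lay apart from the other libraries on the first principal component, and EA replicate 3 lay apart on the second.

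CCHa2 was the gene of the set with the largest difference, 5.15-fold higher in EA. Its normalized counts were 2595, 1830.0, 2372 and 1769 in EA replicates 1 to 4. In WT replicates 1 to 4 they were 390.3, 483, 371 and 420.1. Every EA library was far above every WT library. The EA mean of 2141 ± 406 stood against a WT mean of 416 ± 49.0 (SD, n = 4), a difference of 2.35 ± 0.14 (SE) on the log2(normalized count + 1) scale with a 95% interval of 2.03 to 2.66. Leaving out any 1 library kept the difference between 2.25 and 2.43, and leaving out WT replicates 2 and 4 together gave 2.47. These values rested on 2082 to 3083 reads per EA library and 295 to 607 per WT library. By size, CCHa2 ranked 30th among the genes that were higher in EA. Within groups its spread was ordinary, with an SD of 0.23 on the log2 scale beside a median of 0.20 over all genes tested. In whole heads, more cells of a type and more RNA per cell cannot be told apart, for this gene and those below.

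CCHa2-R, which encodes the G protein-coupled receptor of the peptide, was low in heads and had no difference of this kind. Its normalized counts were 59.6, 59.8, 18.6 and 60.2 in EA and 56.9, 56.8, 44.2 and 42.9 in WT. Of the 8 libraries, 7 lay close together and EA replicate 3 lay far below them, on 17 reads. The EA mean was 49.5 ± 20.6 and the WT mean 50.2 ± 7.70 (SD, n = 4). The log2 difference was -0.15 ± 0.36 with a 95% interval of -0.95 to 0.66. Its direction rested on that 1 library, since without EA replicate 3 the difference was 0.26.

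The cytokine gene upd2 was barely detected. Its reads numbered 5, 4, 3 and 1 in the EA libraries and 3, 2, 4 and 3 in the WT libraries, so it was below the minimum for testing. At this depth no difference of modest size could be seen for upd2.

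**Figure D1:**
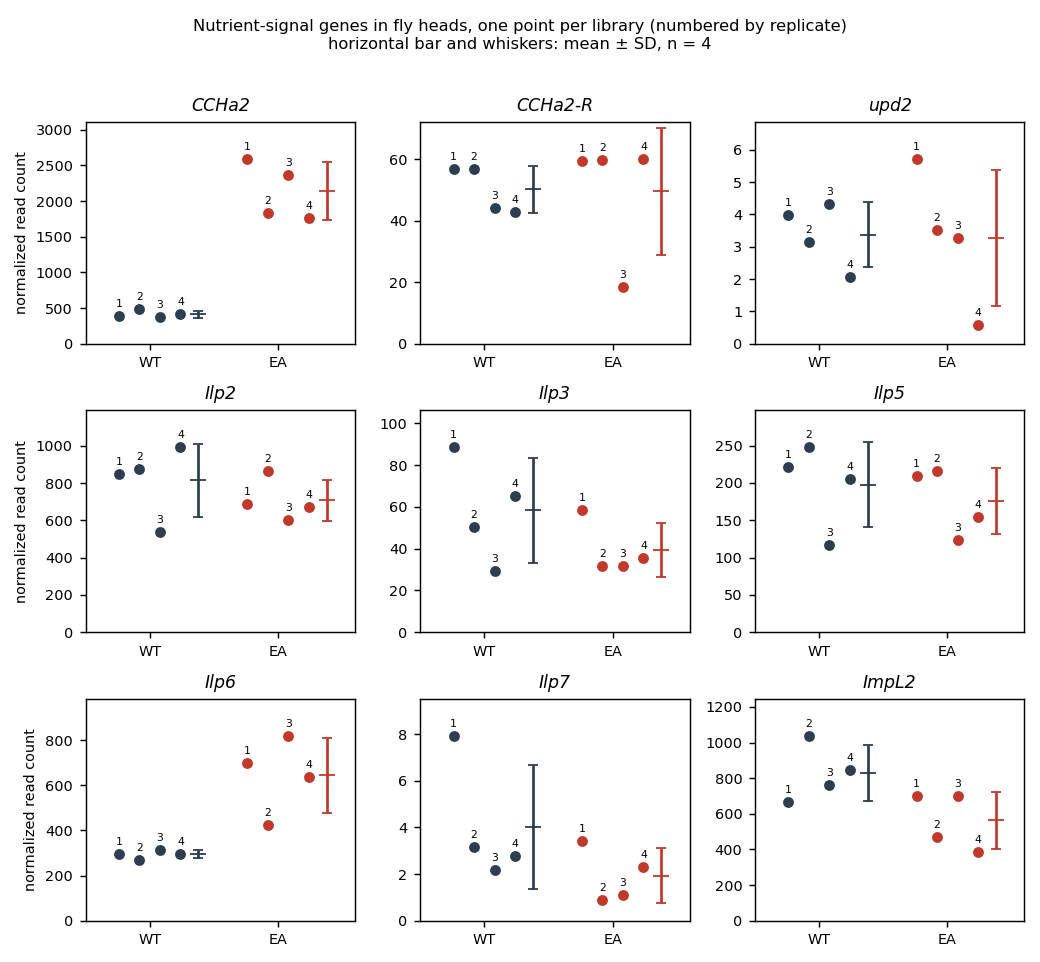
Normalized read counts (y axis, from 0) of the 9 matched genes in the 4 WT and 4 EA libraries, one numbered point per library, with the mean and SD (n = 4) as bar and whiskers beside them. CCHa2 and Ilp6 are the 2 genes whose EA and WT points do not overlap, and CCHa2-R has 1 low EA point at 18.6.

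The peptide genes of the brain insulin-producing cells had lower means in EA, and the values of each overlapped between the groups. Ilp2, the most abundant insulin-like peptide gene here, was at 687, 866, 603 and 675 in EA and 851, 876, 538 and 994 in WT. The log2 difference was -0.18 ± 0.19 with a 95% interval of -0.60 to 0.24. All EA values of Ilp2 lay within its WT range.

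Ilp5 was at 209.7, 215, 124 and 154 in EA and 221, 248, 117 and 206 in WT. Its log2 difference was -0.15 ± 0.26 (95% interval -0.73 to 0.42). Both Ilp2 and Ilp5 were lowest in replicate 3 of either group. Without WT replicates 2 and 4 the differences of Ilp2 and Ilp5 were 0.05 and 0.09, so the sign of neither was stable.

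Ilp3, the least abundant of these brain peptides, was at 58.4, 31.6, 31.7 and 35.6 in EA and 88.7, 50.5, 29.1 and 65.1 in WT. WT replicate 3 was the lowest of the 8 libraries and WT replicate 1 the highest, so the WT range took in the whole EA range. The log2 difference was -0.50 ± 0.34 (95% interval -1.25 to 0.26). Summed over Ilp2, Ilp3 and Ilp5, the EA libraries had 923 ± 150.2 normalized counts and the WT libraries 1071 ± 262 (SD, n = 4). The Ilp5 level per kb of exon was 28.7% to 42.8% of that of Ilp2 in EA and 29.0% to 39.7% in WT.

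Ilp6, the insulin-like peptide of the fat body, was higher in EA. Its normalized counts were 697, 423, 819 and 636 in EA and 296, 270.0, 315 and 296 in WT. The WT libraries lay within a narrow range and every EA library was above it, EA replicate 2 being nearest to WT. The means were 644 ± 166 and 294 ± 18.5 (SD, n = 4), a 2.19-fold difference, or 1.09 ± 0.18 on the log2 scale with a 95% interval of 0.69 to 1.49. Leaving out 1 library gave 0.96 to 1.28. Ilp6 ranked 172nd among the genes that were higher in EA.

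Ilp7, a peptide made mainly by neurons of the ventral nerve cord, which lies outside the head, was near the floor with 1 to 4 reads per EA library and 2 to 6 per WT library. As for upd2, the reads were too few to show a difference of modest size.

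ImpL2 encodes a secreted protein that binds insulin-like peptides and counteracts insulin signalling. Its normalized counts were 698, 471, 701 and 387 in EA and 668, 1039, 762 and 848 in WT. Replicates 1 and 3 of EA reached above the lowest WT library, so the groups overlapped, although the means of 564 ± 160 and 829 ± 158 (SD, n = 4) put ImpL2 lower in EA. The log2 difference was -0.58 ± 0.21 (95% interval -1.05 to -0.11). It ran from -0.70 to -0.42 with 1 library left out and was -0.38 without WT replicates 2 and 4. In the Ensembl annotation of assembly BDGP6.54, 61.9% of the exon bases of ImpL2 are also exon of CG46460 on the same strand, so reads there could belong to either gene.

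Over the set, 7 of the 9 matched genes were tested. CCHa2 and Ilp6 passed the adjusted threshold in limma, both higher, beside 1.21% of all genes tested. The same 2 genes passed in edgeR, beside 1.22% of all genes, and in DESeq2, beside 5.16%. They were also the 2 whose groups did not overlap, beside 7.99% of all genes. The median log2 difference of the 7 was -0.15, and that of all genes tested was -0.00. The count of 2 became 1, with Ilp6 lost, without EA replicate 1, EA replicate 4 or any single WT library. Nothing is read from these counts, since the set was proposed from this same comparison. Over 18 other settings of the analysis, the log2 difference ran from 2.25 to 2.47 for CCHa2 and from 0.96 to 1.28 for Ilp6.

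**Figure D2:**
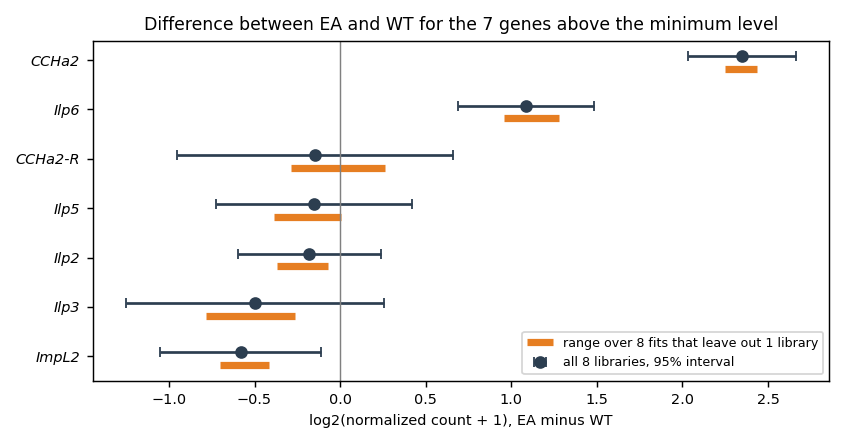
Difference between EA and WT (x axis, log2 of the normalized count plus 1) for the 7 tested genes. Points and whiskers give the estimate from all 8 libraries with its 95% interval, and orange bars give the range when 1 library at a time is left out. CCHa2 at 2.35 and Ilp6 at 1.09 lie to the right, and the orange bar of CCHa2-R spans 0.

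The order of the levels was read per kb of exon, since normalized counts also depend on the exon length of a gene. In WT heads the mean level per kb ran from Ilp2 (1216 ± 290.4) through Ilp5 (414 ± 119), ImpL2 (311 ± 59.2), CCHa2 (285 ± 33.6), Ilp6 (122 ± 7.68) and Ilp3 (77.7 ± 33.3) to CCHa2-R (17.1 ± 2.62; SD, n = 4 for each). The ranges of Ilp5 and ImpL2, of ImpL2 and CCHa2, and of Ilp6 and Ilp3 overlapped, so those neighbours were not apart. In EA heads CCHa2 had the highest mean level per kb at 1468 ± 278, although its range overlapped that of Ilp2 at 1056 ± 167. Then came Ilp5 (367 ± 92.9), Ilp6 (267 ± 68.7) and ImpL2 (212 ± 59.9), with overlapping ranges, and Ilp3 (52.4 ± 17.1) and CCHa2-R (16.9 ± 7.03) below them. Ilp7 and upd2 stood last in both groups.

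Ilp6 took a larger part of the insulin-like peptide transcripts in EA. Its share of the summed level per kb of the 5 genes was 15.7%, 8.94%, 22.0% and 16.05% in EA replicates 1 to 4. In WT replicates 1 to 4 the share was 6.20%, 5.57%, 10.7% and 5.78%. EA replicate 2 lay below WT replicate 3, so the shares overlapped where the counts of Ilp6 had not. Ilp2 took 60.4 ± 4.29% in EA as against 66.2 ± 2.48% in WT (SD, n = 4). The summed level per kb was 1745 ± 189 in EA and 1833 ± 415 in WT, a difference smaller than the spread within WT.

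**Figure D3:**
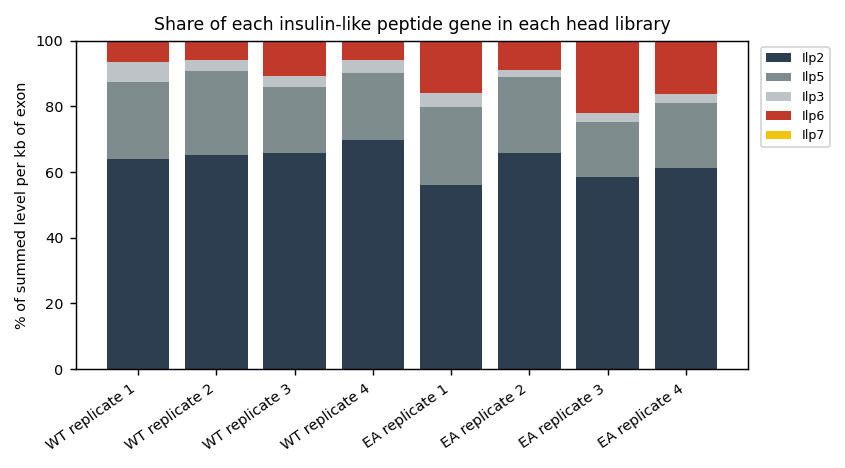
Share of each insulin-like peptide gene in the summed level per kb of exon of the 5 genes (y axis, percent), one bar per library. Ilp2 is the largest part everywhere, between 55.9% and 69.8%, the red Ilp6 part runs from 5.57% to 22.0%, and Ilp7 is too small to see.

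None of the tested genes around CCHa2 on chromosome arm 3R passed, beside 1.21% of all genes. From so few genes nothing is read about the region. The nearest 3 annotated genes on each side in BDGP6.54 were mRpS21, Droj2, CG9799, CG14374, CG14377 and GILT1. CG9799, 0.35 kb away, was at 145 in EA and 167 in WT (log2 difference -0.23 ± 0.17, limma adjusted p = 0.630). Droj2, a DnaJ-type chaperone gene, differed by -0.04 ± 0.07 (adjusted p = 0.886), GILT1 by 0.02 ± 0.13 (adjusted p = 0.974) and mRpS21, a mitochondrial ribosomal protein gene, by 0.31 ± 0.18 (adjusted p = 0.524). CG14374 and CG14377 were too low to be tested, at no more than 10 reads in any library. Near that floor, CG14377 was at 5.73 to 7.66 normalized counts in EA and 1.08 to 5.29 in WT. Its groups did not overlap, as in 7.99% of all genes tested. No gene overlapped CCHa2 in the annotation. Ilp6 lies on the X chromosome, 0.543 Mb from Adar, and is overlapped on the other strand, with no exon base in common, by Raf, a kinase gene of the Ras pathway. The Raf mean was 671 ± 106 for EA and 663 ± 44.1 for WT (SD, n = 4), a log2 difference of 0.01 ± 0.12 with a 95% interval of -0.26 to 0.27 (limma adjusted p = 0.994). Since w differed between the groups too and the EA genotype also names y and sc, strain differences and the Adar mutation cannot be told apart for Ilp6. The same holds for CCHa2 and for every other gene here.

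Among 8581 genes with a mean of at least 50, the gene with the profile over the 8 libraries most like that of CCHa2 was Ssk, a septate junction protein gene. Likeness was the root mean square distance between log2 values centred on their mean. Ssk lay at 0.33, beside a median of 1.21 over all those genes, with 322, 368, 372 and 353 in EA and 109, 112, 80.9 and 79.6 in WT. CG33110 (0.48), CG9377 (0.51), hgo (0.53) and nAChRalpha6 (0.54) came next. The last encodes a nicotinic acetylcholine receptor subunit, and hgo encodes homogentisate dioxygenase, an enzyme of tyrosine breakdown. Their log2 differences between EA and WT were 1.90 for Ssk, 1.47 for CG33110, 1.96 for CG9377, 1.76 for hgo and 2.28 for nAChRalpha6, and the measure itself picked them for that. Ilp6 was 22nd by this distance (0.68), whereas Ilp2 and Ilp5 (both 1.31) and ImpL2 (1.47) lay farther from CCHa2 than the median gene.

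**Figure D4:**
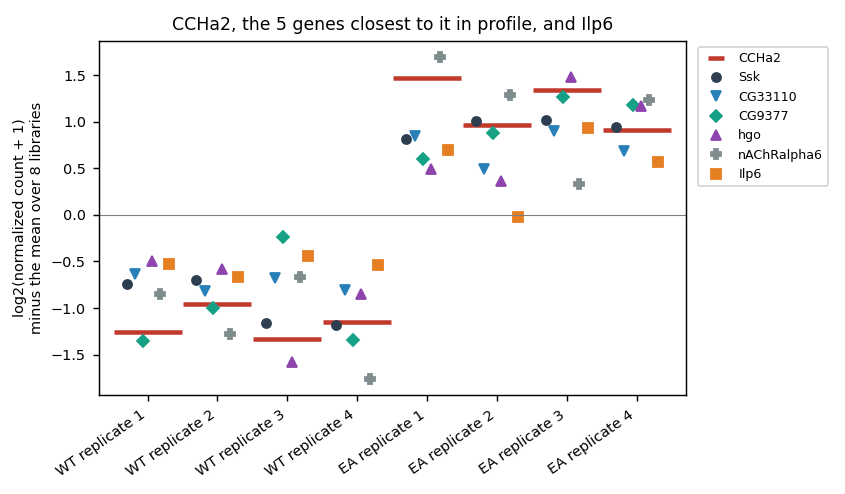
Log2(normalized count + 1) minus the mean over the 8 libraries (y axis) for CCHa2 (red bars), the 5 genes closest to it in profile and Ilp6, by library. All 7 genes are below 0 in each WT library. They are above 0 in each EA library except Ilp6, which is near 0 in EA replicate 2.

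The wider pathway was read from 6 lists of 69 genes, of which 67 matched and 63 were tested. One of the 63 passed in limma, beside 1.21% of all genes, and their median log2 difference was 0.02. In edgeR the count was also 1 (1.22% of all genes) and in DESeq2 it was 3 (5.16% of all genes). In limma 13 of the 63 had an unadjusted p under 0.05, where 12.7% of all genes did. The groups did not overlap in 5 of the 63, beside 7.99% of all genes. Those 5 were Stat92E, dome, Pdk1, tobi and, in the list of nutrient signals and receptors, sun.

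Of the 15 nutrient signals and receptors, all of which were tested, none passed in limma, edgeR or DESeq2, and 6 had an unadjusted p under 0.05 in limma (12.7% of all genes). Lst, which encodes limostatin, a peptide that restrains insulin release, was at 577, 247, 1889 and 543 in EA and 340.1, 259, 208 and 260.2 in WT (log2 difference 1.23 ± 0.50, limma adjusted p = 0.338). Gbp2, a growth-blocking peptide gene, was at 526, 352, 2065 and 767 in EA and 442, 461, 355 and 454 in WT (0.79 ± 0.44, adjusted p = 0.517). Both were by far highest in EA replicate 3 and overlapped between the groups. The closest relative of CCHa2, CCHa1, differed by 0.54 ± 0.24 (adjusted p = 0.386), and its receptor gene CCHa1-R by -0.36 ± 0.21 (adjusted p = 0.544).

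Of the 9 JAK/STAT pathway genes, through which upd2 signals, 6 were tested and none passed in limma. An unadjusted p under 0.05 was reached by 2 of the 6 (12.7% of all genes). Stat92E, the transcription factor of the pathway, came closest, at 4135, 3380.5, 3793 and 4219.5 in EA and 2874, 2877, 2962 and 2916 in WT. Its groups did not overlap (7.99% of all genes) and its log2 difference was 0.41 ± 0.08, with an adjusted p of 0.0535 in limma and 3.86e-04 in DESeq2. Over the 18 other settings the adjusted p ran up to 0.315, and without EA replicate 2 it was 0.0228. Next in size was et, a receptor-like inhibitor of the pathway (0.39 ± 0.21, adjusted p = 0.490, limma). The receptor gene dome was lower in every EA library than in any WT library, beside 4.03% of all genes tested. Its difference was small (-0.18 ± 0.07, limma adjusted p = 0.350), and the target gene Socs36E differed by 0.02 ± 0.08 (adjusted p = 0.971). The ligand genes upd1 and upd3 had no more than 4 reads in any library.

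The other insulin-like peptides and binding proteins gave 4 tested genes of 6, none of which passed or had an unadjusted p under 0.05. Ilp1, a further peptide of the insulin-producing cells, was at 14.9, 18.5, 14.2 and 14.9 in EA and 43.7, 17.4, 25.9 and 12.5 in WT (log2 difference -0.50 ± 0.37, limma adjusted p = 0.652). The secreted decoy receptor gene Sdr differed by -0.02 ± 0.11 (adjusted p = 0.974) and conv, which encodes a protein that binds insulin-like peptides, by 0.27 ± 0.13 (adjusted p = 0.420). Ilp4 and Ilp8 were too low to be tested.

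None of the genes of the intracellular insulin and TOR pathway passed. Of 20 genes, 19 were tested, 12 higher and 7 lower, with a median log2 difference of 0.04. In limma 1 of the 19 had an unadjusted p under 0.05 (12.7% of all genes). Pdk1, a kinase that activates Akt, was lower in each EA library than in any WT library (-0.18 ± 0.07, limma adjusted p = 0.361). EA lay wholly below WT in 4.03% of all genes tested. The insulin receptor substrate gene chico (-0.02 ± 0.07), Akt (0.10 ± 0.09) and foxo (0.05 ± 0.12) had adjusted p of 0.944, 0.725 and 0.925.

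Among the 10 FOXO and starvation-responsive genes, all tested, tobi alone passed in limma, beside 1.21% of all genes, and was higher in EA. Of the 10, 7 were higher and 3 lower, and 4 had an unadjusted p under 0.05 (12.7% of all genes). tobi encodes an alpha-glucosidase known as a target of brain insulin and of adipokinetic hormone. Its normalized counts were 220.0, 188, 596 and 578 in EA and 52.9, 122, 66.9 and 87.9 in WT, with no overlap (7.99% of all genes). The log2 difference was 2.13 ± 0.41 with a limma adjusted p of 0.0479, close to the threshold, and 0.0452 in edgeR. The call was lost when EA replicate 1 (adjusted p = 0.0754), 3 (0.0652) or 4 (0.136) was left out, and also when WT replicate 1 (0.0980), 2 (0.0843), 3 (0.137) or 4 (0.0966) was, though the difference stayed between 1.86 and 2.42 when single libraries were left out. Over all 18 settings the adjusted p ran from 1.87e-06 to 0.150.

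The other genes of that list did not pass in limma. Pepck1, a gene of gluconeogenesis, was at 11661, 5267, 17844 and 15166 in EA and 4318, 6776, 4638 and 5501 in WT (1.12 ± 0.34, limma adjusted p = 0.176), and it passed in DESeq2. EA replicate 2 was the EA library within the WT range. The lipase gene bmm differed by 0.51 ± 0.20 (adjusted p = 0.336), and Thor, the translational repressor and FOXO target, by -0.17 ± 0.17 (adjusted p = 0.763). Of the 9 receptor genes of the insulin-producing cells, none passed or had an unadjusted p under 0.05, and the largest differences were those of AstA-R2 (-0.58 ± 0.38, adjusted p = 0.593) and Lkr (-0.31 ± 0.24, adjusted p = 0.671). AstA-R2 was near the minimum for testing, at means of 9.07 in EA and 13.6 in WT, with at most 23 reads in any library.

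**Figure D5:**
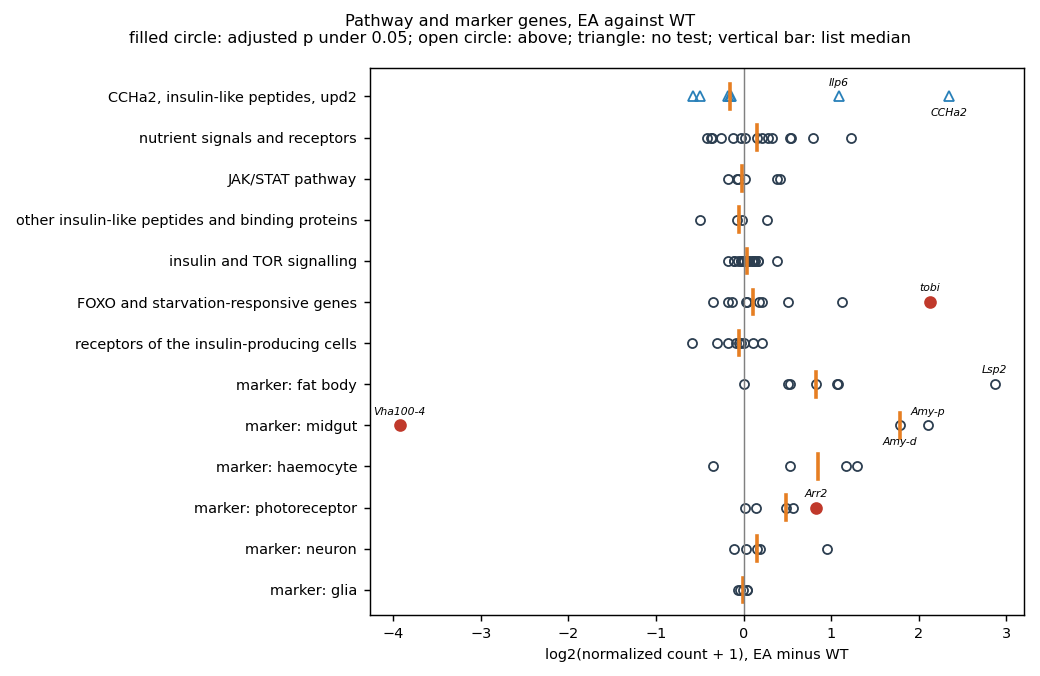
Log2 difference between EA and WT (x axis) for each tested gene of the set, of the 6 pathway lists and of the 6 marker lists, with the list median as an orange bar. Filled circles passed the adjusted threshold in limma and open circles did not. Triangles are the 7 genes of the set, given as a description, so passing is not marked for them, although CCHa2 and Ilp6 passed. In the pathway lists tobi at 2.13 is the only filled point, and all 7 fat body markers lie to the right of 0.

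Head samples include fat body, and 2 of its 7 matched markers were higher in EA without overlap, beside 3.96% of all genes. Of 8 fat body markers 7 matched, and all 7 had a positive log2 difference (median 0.83, from 0.01 to 2.87), none passing in limma. The other markers overlapped between the groups, and Apoltp hardly differed (0.01 ± 0.25, limma adjusted p = 0.996). In limma 4 of the 7 markers had an unadjusted p under 0.05 (12.7% of all genes), 1 passed in edgeR (1.22% of all genes) and 3 in DESeq2 (5.16%). Their summed level was 65641 to 139484 in EA and 45609 to 59406 in WT with no overlap, and none was at 0 in any library. Most of that sum was apolpp, the lipophorin gene, at 50807 to 101035 in EA and 32657 to 43134 in WT. Marker sums here and below are of normalized counts, with no correction for exon length. The storage protein gene Lsp2 was at 1543 to 5428 in EA and 93.9 to 1187 in WT (2.87 ± 0.67, limma adjusted p = 0.0864). The part of the fat body markers in the differences of CCHa2, Ilp6 and tobi was not tested.

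Of the 5 photoreceptor markers, 3 were higher in EA without overlap, beside 3.96% of all genes. All 5 had a positive log2 difference (median 0.49). However, trp (0.02 ± 0.11, limma adjusted p = 0.971) and norpA (0.14 ± 0.09, adjusted p = 0.592) overlapped between the groups. The summed level was 314393 to 370028 in EA and 222507 to 275288 in WT with no overlap, ninaE being its largest part. Arr2, the major arrestin gene of the eye, rose (0.83 ± 0.13, limma adjusted p = 0.0166). The rhodopsin gene ninaE (0.57 ± 0.13, adjusted p = 0.0853) and ninaC, a myosin gene of the photoreceptor (0.49 ± 0.11, adjusted p = 0.0662), did not overlap between the groups either. In limma and edgeR 1 of the 5 passed (1.21% and 1.22% of all genes), and in DESeq2 3 did (5.16%).

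The 5 neuron markers had a summed level of 61478 to 107884 in EA and 54917 to 74837 in WT. None passed in limma or edgeR, 1 had an unadjusted p under 0.05 (12.7% of all genes), and 1 passed in DESeq2 (5.16% of all genes). That gene was Syt1, the synaptic vesicle calcium sensor, whose groups did not overlap, beside 7.99% of all genes (0.95 ± 0.20, limma adjusted p = 0.0557). The 5 glia markers had a summed level of 22165 to 27020 in EA and 22270 to 25213 in WT, with none passing in limma, edgeR or DESeq2. The 5 haemocyte markers overlapped at 2809 to 6201 and 2607 to 3548, with none of the 4 tested passing in limma, edgeR or DESeq2. Of those 4, 2 had an unadjusted p under 0.05 (12.7% of all genes), and He, one of the defining markers, had no more than 5 reads. Of 9 midgut markers 6 matched and 3 were tested, of which Vha100-4, a proton pump subunit gene, fell (-3.93 ± 0.39, limma adjusted p = 0.00164). DESeq2 also called Amy-d, an amylase gene, higher. Thus 1 of the 3 passed in limma and in edgeR (1.21% and 1.22% of all genes), and 2 in DESeq2 (5.16%). The summed midgut level was 209 to 1636 in EA and 134 to 197 in WT, mostly Amy-d, and betaTry, a trypsin gene of the gut, had no more than 1 read. The part of these tissues in the differences above was not tested.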

How the data were processed

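RNA was extracted from heads, depleted of ribosomal RNA and sequenced as 75 bp read pairs. The deposited table held a signal per gene and library, a read count that the authors had normalized with DESeq2 size factors. The submitters' notes name TopHat, featureCounts and the builds dm3 and BDGP5, and the strand setting of the counting is not given in the sources used here. The table also held 5 columns of the authors' own comparison, deposited as a log2 fold change and its error, a score (the Wald statistic) and p-values, which were not used. The deposited mean signal was not used either.

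The smallest step of each column was taken as 1 read, by which 100% of values came out whole within 0.01 reads, and these recovered reads were used for the count tests. Symbols came from the Ensembl release 115 annotation (BDGP6.54), which matched 14023 of 14622 identifiers (95.9%), and coordinates of that assembly were used only for distances, exon lengths, overlaps and gene order.

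EA and WT were compared with limma 3.58.1 in R 4.3.3, with a mean-variance trend and two-sided moderated tests, on log2(normalized count + 1), for genes with a mean of at least 10, with Benjamini-Hochberg adjustment over 10347 genes. The pseudocount of 1 understates the change of low genes. On the recovered reads, edgeR 4.0.16 (quasi-likelihood) passed 126 genes and DESeq2 1.42.0 passed 532. Further alternatives were TMM scaling, pseudocounts of 0.5 and 5, other minima, limma without a trend, leaving out each library, leaving out WT replicates 2 and 4, and a replicate block. The scripts were tested on simulated data. The floor of 3 reads covers counting error only.

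The members and the gene lists were chosen with earlier results of these data known. Genes named were all members, Adar and w, each pathway gene that passed or, for a list with none, the 2 with the largest differences, the 5 genes closest to CCHa2 in profile and its 3 neighbours on each side. One gene that this rule names is not reported here. Other genes named were chosen after their values were seen. InR and, among list genes, S6k, Ptp61F, FASN1, Jon25Bi, alphaTry and thetaTry matched no row and were not analysed here. Tor and plin1 were read as mTor and Lsd-1 through RefSeq synonyms.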

Additional observations from a re-analysis of the deposited data

Results flagged for a closer look

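In 2 of 18 groups of 4 libraries checked for the 9 matched genes, 1 library stood apart from its group, with a gap to its nearest neighbour larger, as a share of the group's range, than Dixon's 95% critical value. Chance gives about 1 in 20 such groups. For CCHa2-R in EA, replicate 3 was at 18.6 normalized counts while the other EA libraries were at 59.6 to 60.2, a gap of 0.98 of the range. For Ilp3 in EA, replicate 1 was at 58.4 while the other EA libraries were at 31.6 to 35.6, a gap of 0.85 of the range. Neither library stood apart in the same way for any other gene of the set.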

How the results depend on the processing

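The count of genes that passed, 125, was 79 with a minimum mean of 50, 82 without a trend, 532 in DESeq2 (317 higher and 215 lower), 20 without WT replicates 2 and 4, and 38 to 186 with 1 library left out. The deviations of same-numbered EA and WT libraries correlated at 0.19, -0.19, -0.23 and -0.12. Such values from 4 libraries per group cannot settle whether replicate numbers marked pairs, and the main comparison used no pairing. With the replicate number as a block, 26 genes passed, 1 gene of the set and 0 of the pathway lists. The count within the set, 2, was 1 without a trend and without WT replicates 2 and 4, and 1 to 2 with 1 library left out. Ilp6 was the gene lost each time. The pathway count, 1, was 0 without a filter, with a minimum of 50, without a trend and without WT replicates 2 and 4. It was 3 in DESeq2 (tobi, Stat92E and Pepck1) and 0 to 3 with 1 library left out, where the 3 came without EA replicate 2 and were the same genes. No log2 difference of the 7 tested genes moved by as much as 1 within-group SD in any setting run. Depth limited what could be seen of upd2 and Ilp7, which had no more than 6 reads in any library.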

Other observations

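Akh, which encodes adipokinetic hormone, the fly counterpart of glucagon, varied more between libraries of the same group than between the groups. It was at 461, 87.9, 441 and 16.6 normalized counts in EA and 22.5, 352, 146 and 729 in WT. The gene was picked out after its values were seen. Its log2 difference was -0.37 ± 1.23 (limma adjusted p = 0.950) and ran from -1.33 to 1.19 over the alternatives, so no direction held. EA replicate 3 was the EA library with the highest Lst, Gbp1, Gbp2, bmm and Amy-d as well as the highest Ilp6, and the one with the lowest CCHa2-R. It was also the library at 27926 for the fatty acid desaturase gene Desat1, where the other EA libraries were at 8729 to 16203 and WT at 7304 to 9458.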
